A study of Mus musculus with 2 samples.

Results

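Jag1-high cells were compared with Jag1-negative cells inside each of 2 droplet RNA libraries of mouse pancreatic ductal adenocarcinoma. The libraries were 1 of the whole tumour and 1 sorted for a high level of the surface tetraspanin CD9 (CD9hi). The groups were chosen by the Jag1 counts themselves: Jag1-high cells held 5 or more Jag1 UMIs (unique molecular identifiers, each counting 1 captured RNA molecule) and Jag1-negative cells held 0. Of 8582 barcodes in both libraries, 5391 were eligible, with 1189 Jag1-high, 1659 Jag1-negative and 2543 holding 1 to 4 Jag1 UMIs. The whole tumour gave 210 Jag1-high and 937 Jag1-negative cells of 1926 eligible, and the CD9hi library gave 979 and 722 of 3465. Eligible cells had at least 500 detected genes, at least 10000 UMIs, at most 20% mitochondrial UMIs, at least 1 UMI of the epithelial gene Epcam, at least 1000 CPM (the UMIs of a gene per 1 M of the total) of the nuclear RNA Malat1 and 0 UMIs of the leukocyte gene Ptprc.

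All cells came from the KPFRR mouse. In it the allele Pdx1-Flp places Flp recombinase under a pancreatic promoter, and Flp acts on the KrasFSF-G12D/+ oncogene and on the tumour suppressor Trp53frt/frt, which it deletes. The mouse also carries Rosa26FSF-creER, an inducible Cre, together with the Tomato-to-GFP reporter Rosa26mTmG. Both groups of both libraries share this genotype, and no treatment, age or number of animals is given in the labels. Sorting of live cells used GFP or CD9, and GFP RNA had 0 UMIs in either library and TdTomato had 6 and 10 UMIs. With 1 library of each kind and cells that are not replicates, no difference has a replicate check, so no p-value is given, and all intervals are exact 95% intervals that cover counting error only.

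Jag1 encodes Jagged1, a membrane ligand that binds Notch receptors on a neighbouring cell. Binding releases the Notch intracellular domain, which joins the DNA-binding protein RBPJ and switches on genes such as those of the Hes and Hey families, and signals can pass both ways between cells that display ligands and receptors. Notch is active in pancreatic progenitors and returns in pancreatic tumours. A hybrid epithelial and mesenchymal state, in which a cell keeps adhesion genes such as Epcam and gains genes such as Vim, is the state the series set out to link with Jag1.

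The genes that accompanied Jag1 are introduced here with promoter windows of Jag1 and of 3 of its leading companions, since genes at high level in the same cells invite a look at shared promoter letters. Windows run from 250 bases before to 50 bases after a RefSeq transcript start on GRCm38.p6, 5′ to 3′ along the gene's strand. They are chr2:137116471-137116770 (minus) for Jag1, chr4:64046966-64047265 (minus) for Tnc, chr11:54249850-54250149 (minus) for Csf2 and chr1:193301744-193302043 (plus) for Lamb3. Capitals mark TGGGAA, the core recognised by RBPJ, or its reverse complement. Tnc, Csf2 and Lamb3 were chosen for print because they hold this core, so its presence in them is no finding. For Tnc and Lamb3, which have 2 windows each, a window with the core is shown.
Jag1: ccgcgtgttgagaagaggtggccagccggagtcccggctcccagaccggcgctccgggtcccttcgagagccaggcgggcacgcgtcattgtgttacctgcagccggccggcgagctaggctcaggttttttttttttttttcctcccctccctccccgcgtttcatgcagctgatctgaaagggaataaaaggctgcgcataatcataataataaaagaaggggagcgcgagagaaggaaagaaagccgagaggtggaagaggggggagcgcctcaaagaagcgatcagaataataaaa
Tnc: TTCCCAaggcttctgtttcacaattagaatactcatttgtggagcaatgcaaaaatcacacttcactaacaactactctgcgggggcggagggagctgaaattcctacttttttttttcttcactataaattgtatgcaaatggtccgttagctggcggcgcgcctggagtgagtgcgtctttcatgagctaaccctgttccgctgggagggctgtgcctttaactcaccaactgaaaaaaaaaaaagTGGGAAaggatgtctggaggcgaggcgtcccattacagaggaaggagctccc
Csf2: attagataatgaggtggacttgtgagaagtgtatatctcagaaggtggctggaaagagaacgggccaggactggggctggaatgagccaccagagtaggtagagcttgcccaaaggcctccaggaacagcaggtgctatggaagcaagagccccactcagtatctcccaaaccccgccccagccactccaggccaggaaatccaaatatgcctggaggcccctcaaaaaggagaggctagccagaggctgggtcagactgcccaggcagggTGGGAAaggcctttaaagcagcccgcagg
Lamb3: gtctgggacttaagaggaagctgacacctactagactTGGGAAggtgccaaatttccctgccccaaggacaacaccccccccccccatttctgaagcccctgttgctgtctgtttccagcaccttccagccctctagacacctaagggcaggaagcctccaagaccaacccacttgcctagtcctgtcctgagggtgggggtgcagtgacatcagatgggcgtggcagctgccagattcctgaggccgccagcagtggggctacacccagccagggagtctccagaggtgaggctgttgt
Of the 15 leading genes named below, 9 had a window in the table, and 4 of them (Tnc, Csf2, Lamb3 and Atp2b4) held TGGGAA on either strand, whereas the Jag1 window held none. The windows of Col5a3, Inhba, Mab21l4, Fam214a and Nt5e held none either. TGGGAA was in a window of 39.4% of the 99 genes with a window among those higher in both libraries, of 35.8% of the 67 among those lower in both, of 24.98% of 4107 measured genes and of 28.3% of all 27025 genes of the table. TGANTCA, the AP-1 motif, was in 9.09% and 14.9% of the higher and lower genes against 6.21% of measured genes. GGAATG, the TEAD motif, was in 15.2% and 23.9% against 13.5%. Genes higher and genes lower thus held the RBPJ core at similar shares, and a match of letters is a description and not a site of binding.

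Depth was balanced by pairing Jag1-high cells with Jag1-negative cells of the same library within 10% of their total UMIs. This paired all 210 Jag1-high cells of the whole tumour and 704 of the 979 of the CD9hi library. All 979 had a median of 23898 UMIs and held Jag1 at 395 CPM. Median depth was 21194.5 against 21197 UMIs in the whole tumour and 21815 against 20884.5 in the CD9hi library. The paired Jag1-high cells held Jag1 at 391 and 440 CPM, with up to 37 and 74 UMIs in a cell, and these values describe the choice of cells. Just inside the limit, the 53 whole-tumour and 197 CD9hi cells with 5 Jag1 UMIs had medians of 248 and 208 CPM. Just outside it, the 66 and 261 cells with 4 UMIs had medians of 202 and 177 CPM, so the limit cuts through a continuous range. A cell with 0 UMIs is not shown to lack the RNA. After thinning all cells to 10000 UMIs, 36.6% of eligible whole-tumour cells held a Jag1 UMI (51.3% before thinning), against 6.91% (14.9% before) of 188 cells with at least 20% of their UMIs in acinar genes, where the median totals were 19295.5 and 19308.5 UMIs. In the CD9hi library the share was 61.5% (79.2% before thinning).

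The paired groups differed in more than Jag1. Vim was at 2893 against 705 CPM in the whole tumour and at 4534 against 4170 CPM in the CD9hi library. Ribosomal protein genes took 12.6% against 18.5% and 13.3% against 16.0% of UMIs, Malat1 was at 22457 against 18411 and 27739 against 25673 CPM, and median mitochondrial shares were 3.23% against 3.37% and 2.92% against 3.14%. The median log2 ratio (Jag1-high over Jag1-negative, 0.5 counts added to each sum) over all 5126 measured genes was 0.23 in the whole tumour and 0.03 in the CD9hi library. A gene counted as measured at a mean of at least 20 CPM over the groups of each library. The part of these differences in the ratios below was not tested, except for Vim, for which cells were also paired within tertiles.

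In both libraries, Jag1-high cells held more RNA for laminin chains, integrins, the matrix protein tenascin C, Inhba and Csf2, and less RNA for Gsta4 and for Lcn2, Muc1 and other genes of the mucin and secretory list. A gene was called by a rule of size, at least 1.5-fold. In the whole tumour 1047 genes were higher (20.4% of those measured) and 327 lower (6.38%), and in the CD9hi library 165 were higher (3.22%) and 101 lower (1.97%). Higher in both libraries were 150 genes (2.93%) and lower in both 86 (1.68%). Whether both libraries came from the same tumour is not given in the sources used here, so a repeat in both may not be a repeat in another animal. The 150 made up 14.3% of the whole-tumour and 90.9% of the CD9hi genes called higher, and the 86 made up 26.3% and 85.1% of those called lower. With ratios centred on the median gene, the whole tumour had 595 higher and 608 lower, so 49.5% of its calls were higher against 76.2% uncentred, and the counts in both libraries became 133 and 104.

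**Figure D1:**
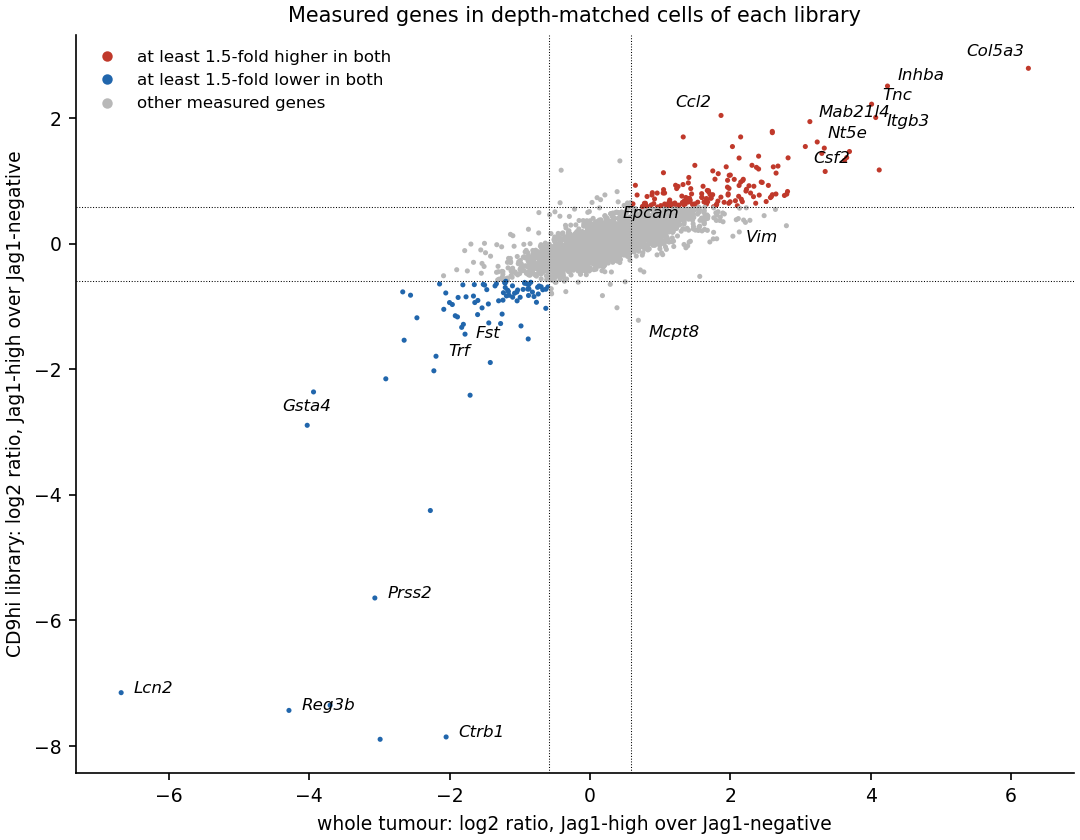
Each point is 1 of 5126 measured genes, with its log2 ratio of Jag1-high over Jag1-negative cells in the whole tumour (horizontal) and in the CD9hi library (vertical), and dotted lines at 1.5-fold. The 150 genes higher in both lie at the upper right, led by Col5a3, Inhba and Tnc, the 86 lower in both lie at the lower left, led by Lcn2, and Mcpt8 lies beyond the lines in opposite directions.

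Laminins anchor epithelial cells to the basement membrane, and Lama3 and Lamb3, which encode an alpha and a beta chain, were higher in both libraries. Lamb3, whose promoter is shown above, was at 206 CPM in Jag1-high and 50.4 CPM in Jag1-negative cells of the whole tumour, a log2 ratio of 2.03 (interval 1.83 to 2.24). In the CD9hi library it was at 203 and 69.3 CPM, a ratio of 1.55 (1.45 to 1.65). The middle 50% of Jag1-high cells spanned 68.3 to 302 CPM of Lamb3 in the whole tumour and 42.0 to 282 CPM in the CD9hi library, against 0 to 70.8 and 0 to 99.5 CPM in the Jag1-negative cells, so the spreads of cells overlapped narrowly in the whole tumour and more widely in the CD9hi library. Lama3 had log2 ratios of 2.60 and 1.77. Among the integrins, which hold cells to matrix, Itgb3 had ratios of 4.07 and 2.01, Itga5, a fibronectin receptor chain, of 2.82 and 1.37, and Itgb1, the common beta chain, of 1.59 and 0.74. In the list of laminins and integrins, 6 of 17 measured members were higher in both libraries, where 2.93% of all measured genes were, and 0 lower. The list medians were 1.27 and 0.46, against 0.23 and 0.03 over all measured genes. Named after their values were seen, Col7a1, which forms anchoring fibrils under the basement membrane, had ratios of 2.68 and 1.24, and the kindlins Fermt1 and Fermt2, which switch integrins on, had 1.04 and 0.81 and 2.36 and 0.65.

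Tnc, a matrix glycoprotein of wounds and tumour stroma, was at 1678 against 104 CPM in the whole tumour and at 786 against 168 CPM in the CD9hi library, with log2 ratios of 4.01 (3.88 to 4.15) and 2.22 (2.16 to 2.29). Its median over cells was 847 CPM in Jag1-high and 0 in Jag1-negative cells of the whole tumour, and 259 and 0 CPM in the CD9hi library. In the whole tumour 25% of Jag1-high cells stayed under 119.9 CPM, so high Jag1 did not always come with high Tnc. Col5a3, a minor collagen chain, had the highest ratio in both libraries, 6.25 (4.90 to 8.75) and 2.80 (2.59 to 3.02), from levels of 54.6 against 0.617 and 91.6 against 13.2 CPM, with 10.1% of the whole-tumour UMIs in 1 cell. Nt5e, the cell-surface enzyme that makes adenosine, had ratios of 3.24 and 1.62, and Adam12, a membrane protease, of 3.70 and 1.47.

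Some of the higher genes encode secreted factors, which were not a fixed list and are given as single genes. Inhba, whose product pairs to form activin A, was at 406 against 21.4 CPM in the whole tumour and 558 against 97.7 CPM in the CD9hi library, with ratios of 4.24 (3.96 to 4.54) and 2.51 (2.43 to 2.59). After thinning, Inhba was detected in 74.3% of Jag1-high and 15.2% of Jag1-negative cells of the whole tumour, and in 74.1% and 43.3% in the CD9hi library. Fst, which encodes the activin trap follistatin, was lower in both, at 15.9 against 54.7 and 22.7 against 61.5 CPM, while its relative Fstl3 was higher, with ratios of 1.76 and 0.59. Csf2, the cytokine GM-CSF, was at 1302 against 155 and 1113 against 380 CPM, with ratios of 3.07 (2.96 to 3.18) and 1.55 (1.51 to 1.59). The chemokine gene Ccl2 had ratios of 1.87 and 2.04, with 23.7% and 13.7% of its UMIs in 1 cell. Vegfa, a growth factor of blood vessels, had ratios of 2.40 and 1.40. Other growth factor genes higher in both, picked after their values were seen and counted against no list, were Pdgfb (2.00 and 1.09), Pdgfa (1.41 and 1.06), Pdgfc (1.97 and 0.80), Vegfc (2.18 and 1.01), Bmp2 (2.15 and 0.98) and Pthlh (2.57 and 0.74). Wnt7b, a Wnt ligand, had 2.23 and 0.87, and Lgr6, a receptor that strengthens Wnt signals, had 2.65 and 0.79. They were 2 of 10 measured Wnt genes called higher in both, against 2.93% of all measured genes, and 0 were lower. The list medians were 0.12 and -0.02.

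Others of the 15 genes that led by the smaller of their library ratios were Mab21l4 (3.13 and 1.95), Fam214a (2.15 and 1.70), the calcium pump gene Atp2b4 (3.34 and 1.52) and Trbc1 (3.30 and 1.44). Trbc1 is a constant segment of the T cell receptor beta chain with a near-identical copy, so its counts are uncertain. The summed level of 14 T, NK and B cell genes was 0.618 against 1.03 CPM in the whole tumour, with 12 of the 14 at 0, and 2.35 against 1.41 CPM in the CD9hi library, with 7 at 0.

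Levels of some leading genes followed the Jag1 count over its whole range and did not differ only at the extremes. With cells thinned to 10000 UMIs and classed by the Jag1 UMIs left (0, 1, 2, 3, and 4 or more), Lamb3 was at 55.6, 83.3, 134, 191 and 252 CPM in the whole tumour. In the CD9hi library it was at 80.4, 108, 141, 155 and 228 CPM. Csf2 was at 153, 335, 738, 1054 and 1456 CPM and at 480, 702, 763, 1036 and 1185 CPM. Gsta4 went the other way, from 640 to 18.4 CPM and from 107 to 15.5 CPM. Not all genes did so. Ccl2 was at 51.6, 43.0, 48.7, 85.2 and 169 CPM in the CD9hi library. Ctrb1 in the whole tumour was at 125 CPM with 3 Jag1 UMIs and at 1692 CPM with 4 or more. The classes held 1222, 365, 149, 65 and 125 whole-tumour cells and 1335, 855, 509, 236 and 530 CD9hi cells. Since these cells include those of the main comparison and are classed by Jag1, the gradient describes the same contrast and adds no independent check.

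**Figure D2:**
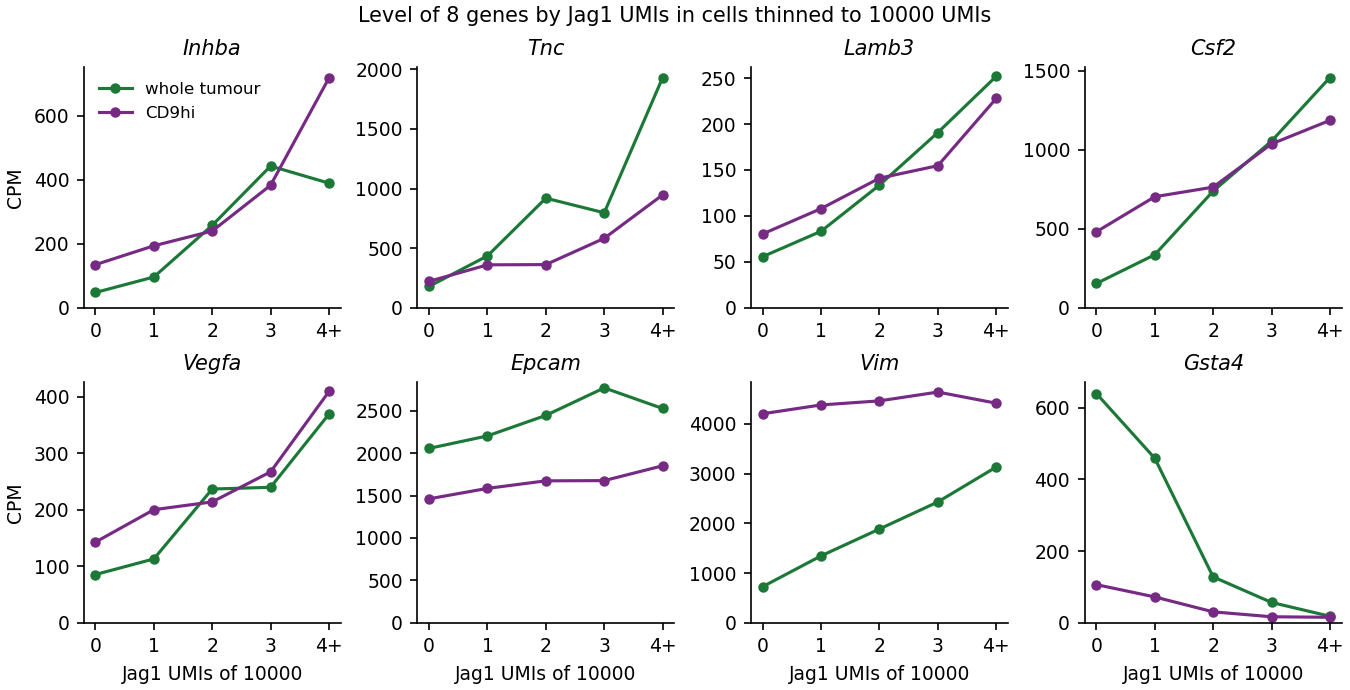
Level in CPM (vertical) of 8 genes in cells classed by the number of Jag1 UMIs left after thinning to 10000 UMIs (horizontal), with 1 line for each library. Lamb3, Csf2 and Vegfa are higher in each next class in both libraries, Inhba and Tnc have 1 step down in the whole tumour, Gsta4 declines, and Vim climbs in the whole tumour from 728 to 3134 CPM but spans only 4207 to 4642 CPM in the CD9hi library.

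Few Notch genes passed the rule of size in both libraries. Dll4, another Notch ligand, lay under the level set for measured genes in the whole tumour, at 22.7 against 6.38 CPM, and was at 37.2 against 12.0 CPM in the CD9hi library, with log2 ratios of 1.81 (1.24 to 2.45) and 1.63 (1.39 to 1.87). It was higher in Jag1-high cells in all 3 Vim tertiles of both libraries. After thinning, 16.7% of Jag1-high and 4.29% of Jag1-negative whole-tumour cells held a Dll4 UMI, and 19.3% and 6.96% in the CD9hi library. Dlk1, a ligand without the usual Notch-binding domain, was lower in both libraries, with ratios of -0.63 and -0.72, the first of which was 0.56 with Jag1-high set at 3 or more UMIs. In the whole tumour 22.6% of Dlk1 UMIs lay in 1 cell. There Dlk1 was higher in Jag1-high cells of the lowest and middle Vim tertiles, at 10.9 against 0 and 14.6 against 3.24 CPM. Within Vim tertiles its ratios were -2.28 and -0.55, and it was not called in both libraries. Jag2 was at 2.06 against 3.91 and 1.80 against 2.05 CPM, Dll1 at 1.24 against 6.58 and 4.58 against 4.09 CPM, and Dll3, Dlk2 and Dner were each under 1 CPM.

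Of the 4 receptors, only Notch2 was measured in both libraries, at 38.3 against 19.3 CPM and 44.8 against 30.6 CPM, with ratios of 0.98 and 0.55, the latter under 1.5-fold. Notch1 had ratios of -0.33 and 0.18, and Notch3 and Notch4 stayed at or under 2.26 CPM. Of 8 measured targets, 1 was higher in both libraries, as were 2.93% of all measured genes. It was the duct and progenitor factor Sox9, at 328 against 215 and 718 against 462 CPM. Within Vim tertiles its ratios were 0.31 and 0.57, and 0 of 9 measured targets were called in both libraries. Hes1, the classical target, was at 357 against 257 and 396 against 317 CPM, ratios of 0.47 and 0.32 that did not reach 1.5-fold. Nrarp, a feedback target, was at 22.4 against 12.1 and 26.8 against 25.7 CPM, and Hey1, Hey2 and Heyl were at or under 1.66 CPM. Of 11 measured genes of the Notch machinery, 0 were called in both libraries, with medians of 0.12 and 0.17 against 0.23 and 0.03 over all genes.

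Jag1-high cells had a higher sum of mesenchymal genes, at 15541 against 4130 CPM in the whole tumour and 15135 against 11237 CPM in the CD9hi library. Epcam, of which the choice of cells required at least 1 UMI, was at 2486 against 1951 CPM in the whole tumour and 1751 against 1406 CPM in the CD9hi library, and Cd9 at 2228 against 1001 and 2610 against 2054 CPM. Over all CD9hi cells of the groups, paired or not, Epcam was at 1565 against 1405 CPM. Of 15 measured mesenchymal genes, 13 were higher in the whole tumour, where 20.4% of all measured genes were, and 5 in the CD9hi library, where 3.22% were. The same 5 were higher in both, among them Fn1, Itga5, Tnc and Nt5e, with list medians of 1.53 and 0.38. Within Vim tertiles 4 of 17 measured were higher in both, and the medians were 0.56 and 0.20. Fn1, fibronectin, was at 5335 against 916 and 4085 against 2144 CPM. Zeb1, a repressor of epithelial genes, was the 1 of 8 measured transcription factors of the epithelial-mesenchymal transition called in both, at 40.6 against 8.85 and 59.2 against 29.0 CPM. Its relative Zeb2 had ratios of 2.21 and 0.34, and Twist1 of 0.60 and -0.05, the first of which was -0.42 in pairs within Vim and Epcam tertiles. The 8 factors had medians of 0.49 and 0.11 without tertiles and of -0.23 and 0.08 within Vim tertiles.

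Epithelial genes were mixed. Of 21 measured, 3 were lower in both libraries, against 1.68% of all measured genes, and 0 higher, with medians of -0.09 and -0.08. The 3 were Rab25, which recycles membrane to the cell surface, the polarity gene Crb3 and the transcription factor Ehf. Within Vim tertiles 1 was higher in both (the desmosome gene Dsp, at 0.99 and 0.68) and 1 lower (Rab25), Crb3 and Ehf were no longer called, and the medians were 0.34 and 0.04. The summed list was at 18682 against 16315 CPM and 11285 against 11127 CPM. Cdh1, E-cadherin, was at 237 against 187 and 162 against 172 CPM. With each cell thinned to 10000 UMIs, 57.1% (50.2 to 63.9) of Jag1-high and 18.1% (13.1 to 24.0) of Jag1-negative whole-tumour cells lay above the median of eligible cells for both the epithelial and the mesenchymal sum. In the CD9hi library these shares were 25.99% (22.8 to 29.4) and 12.4% (10.02 to 15.02), against 26.8% and 18.2% of all eligible cells. Cells high for the mesenchymal sum only were 37.1% of Jag1-high and 14.8% of Jag1-negative whole-tumour cells, and 37.9% and 24.7% in the CD9hi library, where they were the largest Jag1-high class. Cells high for the epithelial sum only were 3.81% and 30.0% in the whole tumour and 23.7% and 39.2% in the CD9hi library. Cells high for neither sum were 1.90% and 37.1%, and 12.4% and 23.7%. Median epithelial sums were 186 against 160 UMIs in the whole tumour and 91 against 97 in the CD9hi library. Median mesenchymal sums were 143 against 25 and 140 against 106 UMIs. The share high for both thus carries the mesenchymal difference and is no separate measure of a hybrid state. The classes are ranges of a sum and not cell types, and 21.4% and 27.5% of eligible cells lay within 10% of a median.

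**Figure D3:**
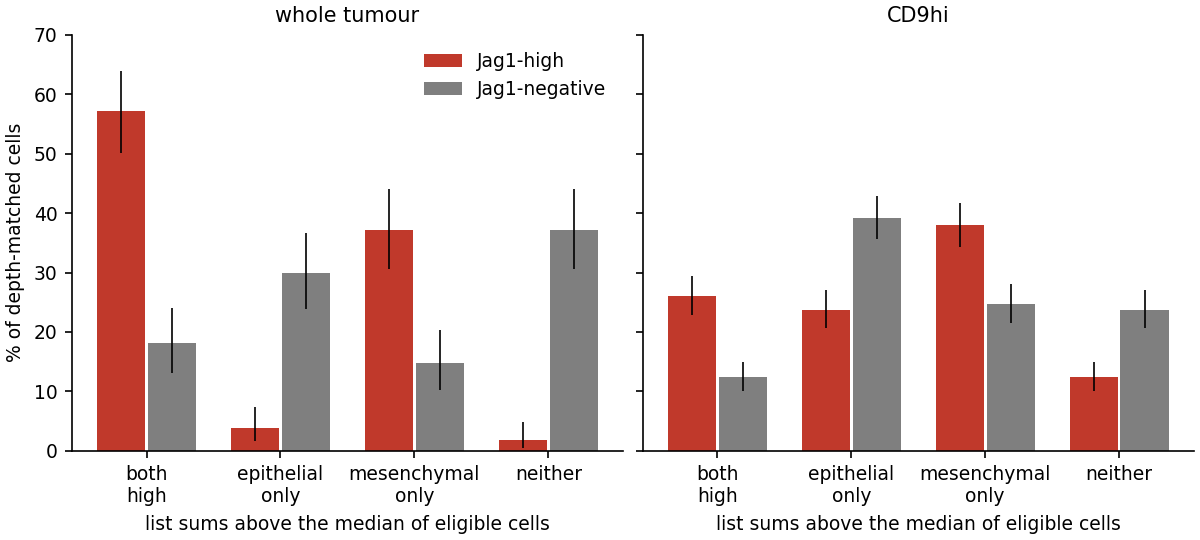
Bars give the percent of depth-matched Jag1-high (red) and Jag1-negative (grey) cells in each of 4 classes, set by whether the summed epithelial and mesenchymal UMIs of a thinned cell exceed the median of eligible cells, with exact binomial 95% intervals. Cells high for both sums made up 57.1% and 18.1% in the whole tumour and 25.99% and 12.4% in the CD9hi library.

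Because Vim differed between the groups, the comparison was repeated with pairs drawn inside Vim tertiles of each library. In the whole tumour, Jag1-high cells were 2.74%, 6.43% and 25.1% of eligible cells from the lowest to the highest tertile, where the lowest holds the 911 cells without a Vim UMI. In the CD9hi library they were 22.3%, 33.6% and 28.8%, with no steady order. The tertiles gave 25, 24 and 137 pairs in the whole tumour, so its lower tertiles rest on few cells, and 230, 230 and 203 in the CD9hi library. Within tertiles 155 of 5200 measured genes were higher in both libraries (2.98%) and 74 lower (1.42%). Of the 150 genes found without the tertiles, 124 were called again (82.7% of the 150 and 80.0% of the 155), as were 65 of the 86 (75.6% of the 86 and 87.8% of the 74). Of the 150, 137 were higher in all 6 combinations of library and tertile, and of the 86, 67 were lower in all 6. These genes had been called in largely the same cells, so their agreement within tertiles is no independent check. The share of all measured genes with 1 direction in all 6 was not computed. Within tertiles the median log2 ratio of all measured genes was 0.13 and 0.04.

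The leading genes varied in how far pairing on Vim moved them. Lama3 had ratios of 2.95 and 1.96 within tertiles and Lamb3 2.26 and 1.65, all above those without tertiles. Inhba was at 2.40 within tertiles against 4.24 without in the whole tumour, and at 2.47 against 2.51 in the CD9hi library. Csf2 was at 1.87 against 3.07 and at 1.51 against 1.55. Epcam had ratios of 0.84 and 0.52 within tertiles, where Vim was at 2670 against 2385 CPM in the whole tumour and 4209.9 against 4286 CPM in the CD9hi library. Krt17, a basal keratin, had ratios of 2.56 and 0.87 within tertiles and 1.87 and 0.74 without, with 11.2% and 11.6% of its UMIs in 1 cell. Without tertiles Krt17 was the 1 of 5 measured basal and squamous genes higher in both libraries, and Sprr1a was lower in both. Within tertiles 2 of 5 were higher in both and 1 lower. Hmga2, a chromatin protein of mesenchymal tumour cells, had 1.41 in the whole tumour without tertiles and 0.02 within them. Zeb1 stayed called at 0.88 and 0.95, and Aldh1a3, which makes retinoic acid and marks tumour-initiating cells, at 1.14 and 1.34.

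**Figure D4:**
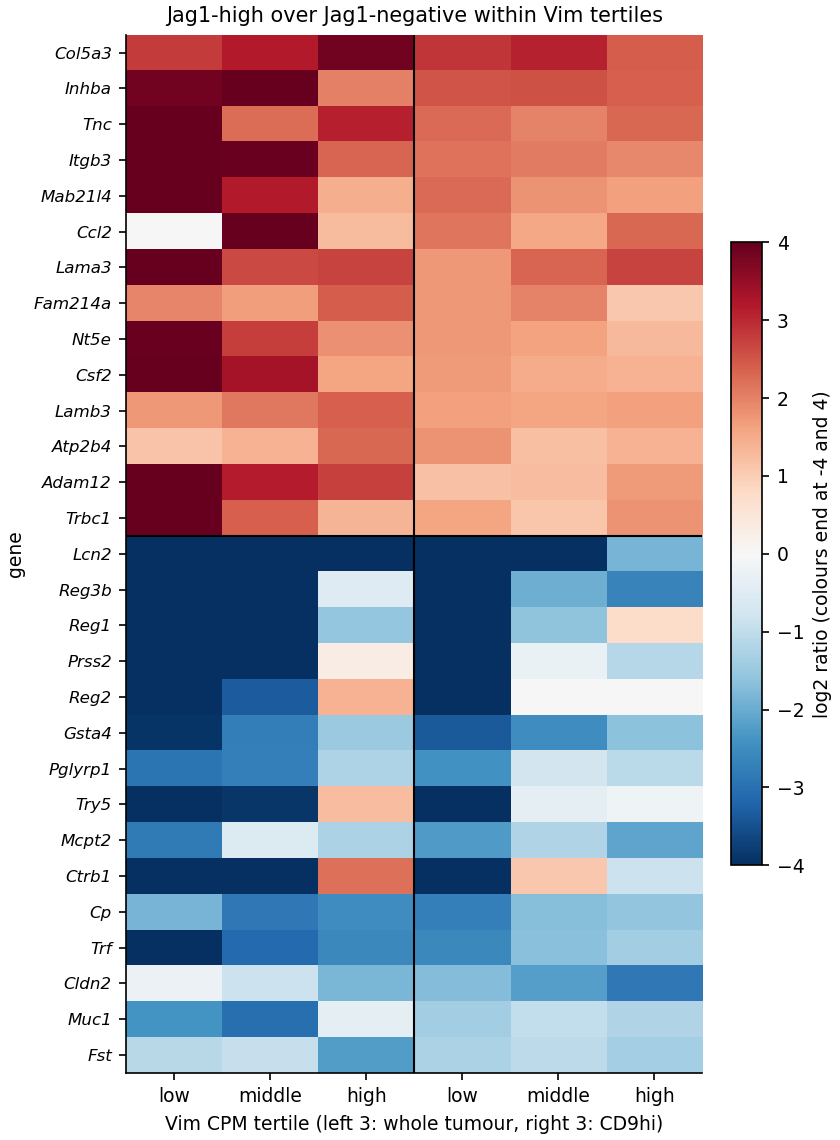
Colour gives the log2 ratio of Jag1-high over Jag1-negative cells for 14 of the 15 leading higher genes (upper block) and the 15 leading lower genes (lower block) in the Vim tertiles of the whole tumour (left 3 columns, 25, 24 and 137 pairs) and of the CD9hi library (right 3 columns). The 14 higher genes are above 0 in all 6 columns, although Ccl2 had 1.82 CPM in both groups of the lowest whole-tumour tertile, whereas Reg1, Prss2, Reg2, Try5 and Ctrb1 are not below 0 in all 6.

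Genes with lower levels in Jag1-high cells included genes of the mucin and secretory list. Of 8 measured mucin and secretory genes, 8 were lower in both libraries, where 1.68% of all measured genes were, with medians of -2.44 and -1.78. Within Vim tertiles 7 of 8 were lower in both. Nearly all CD9hi UMIs of Reg2, 1 of the 8, lay in 1 cell. Lcn2, an iron-scavenging protein of inflamed epithelium, was at 8.24 against 855 CPM in the whole tumour and 0.309 against 48.3 CPM in the CD9hi library, with ratios of -6.68 (-7.19 to -6.25) and -7.15 (-8.91 to -6.06). It was detected in few cells after thinning, 3.81% against 40.0% and 0.426% against 4.12%, and 35.1% of its CD9hi UMIs were in 1 cell. From the lowest to the highest CD9hi Vim tertile, Lcn2 was at 0.382 against 128, 0.372 against 8.67 and 0.207 against 1.03 CPM. Muc1, a membrane mucin, had ratios of -2.65 and -1.54, Cp, the copper carrier ceruloplasmin, of -2.22 and -2.02, and Trf, transferrin, of -2.19 and -1.79. The abundant secreted proteins Spp1 (osteopontin) and Clu (clusterin) were at 7505 against 12735 and 9557 against 18225 CPM in the whole tumour, and at 4802 against 9161 and 9518 against 14721 CPM in the CD9hi library. Cldn2, a pore-forming claudin, was lower at -1.71 and -2.41, and the progenitor marker Prom1 at -2.0 and -0.94.

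Gsta4, a glutathione transferase that clears lipid aldehydes, was at 47.8 against 782 CPM in the whole tumour and 16.5 against 122 CPM in the CD9hi library, with ratios of -4.03 (-4.23 to -3.84) and -2.89 (-3.08 to -2.71), and no cell gave more than 4.17% of its UMIs. Its upper quartile in Jag1-high cells was 0 CPM in both libraries, while its median in Jag1-negative cells was 229 and 27.6 CPM, so most Jag1-high cells had no Gsta4 count. Picked after their values were seen and from no fixed list, Mgst1 had ratios of -1.60 and -1.13, Mgst2 of -1.77 and -0.84, and Gclc, which starts glutathione synthesis, of -0.95 and -0.73. Pck2, picked in the same way, had -0.75 and -0.69. Of 19 measured genes of the unfolded protein and stress response, 3 were lower in both libraries and 1, Ddit4, was higher. Over all measured genes these shares were 1.68% and 2.93%. The 3 were Herpud1, Phgdh, which starts serine synthesis, at -1.44 and -1.26, and Asns, which makes asparagine, at -0.84 and -0.61. Among 4 measured interferon genes, Ifitm3 and Bst2 were lower in both and 0 were higher. With 4 members, these calls are not read as a result about the list. Also picked after their values were seen, 3 cholesterol synthesis genes were higher in both, Hsd17b7 at 1.40 and 0.97, Cyp51 at 0.65 and 0.93, and Hmgcs1 at 0.80 and 0.61.

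Prss2, Try5 and Ctrb1, which encode digestive enzymes, and Reg1, Reg2 and Reg3b were lower in both libraries, but 95.3%, 89.6%, 80.7% and 99.4% of the CD9hi UMIs of Prss2, Try5, Ctrb1 and Reg2 lay in 1 cell. In the whole tumour 1.43% of Jag1-high and 10.7% of Jag1-negative cells had at least 5% of their UMIs in acinar genes, and in the CD9hi library 0 of 979 and 1 of 722 did. Without cells rich in acinar or islet genes, 154 genes were higher and 87 lower in both libraries, and the CD9hi ratio of Reg2 was 0.44. The CD9hi ratios of Reg1 and Reg3b were at or under -2.88 and -3.84 in the 12 alternatives run for single genes. Of their CD9hi UMIs, 38.3% and 33.9% lay in 1 cell. From the lowest to the highest CD9hi Vim tertile, Reg1 was at 0.191 against 203, 0.372 against 1.32 and 0.413 against 0.206 CPM. Reg3b was at 0.382 against 208, 0.372 against 1.70 and 0.207 against 1.86 CPM. In the highest Vim tertile of the whole tumour Reg2 was higher in Jag1-high cells, with a ratio of 1.38. In pairs within Vim and Epcam tertiles, the whole-tumour ratio of Ctrb1 was 1.36 and the CD9hi ratio of Prss2 was 0.20. Reads of the trypsinogen, Reg and Mcpt families may fall to any of several near-identical copies, which makes their counts uncertain. Other marker lists were low, with 15 macrophage genes summing to 71.7 against 158 CPM in the whole tumour and 47.0 against 56.6 CPM in the CD9hi library. The sum of 14 fibroblast and pericyte genes was 21.6 against 26.5 CPM and 126 against 79.8 CPM, and 12 endothelial genes summed to 32.5 against 28.4 and 65.6 against 84.1 CPM. Their part in the ratios was not tested, and the 5 red blood cell genes were at 0 in all 4 groups.

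Across the gene lists, actin and adhesion genes had medians of 0.92 and 0.36, with 19 of 26 measured members higher in the whole tumour and 1 in the CD9hi library. Myh9, a motor of contraction, was higher in both libraries and Lima1 was lower in both. Of all measured genes, 2.93% were higher in both and 1.68% lower. Of 19 genes of the TGF-beta response, 15 were higher in the whole tumour, where 20.4% of all measured genes were, and 3 in both libraries, where 2.93% were, Bhlhe40 and Inhba among them. Of 14 YAP and TEAD targets, 2 were higher in both (Ankrd1 and Nt5e) and 1 lower (F3). Ccn2, another such target, had ratios of 1.81 and 0.08. Among 15 tetraspanins and partners, Cd82, Tspan6 and Ptgfrn were higher in both and 0 were lower. The classical subtype list had 2 of 6 measured members lower in both (Muc1 and Foxa2), and the 4 measured proliferation genes had 0 calls in both, with medians of -0.35 and -0.22. The NF-kB list had 3 of 18 measured members higher in both (Ccl2, Traf1 and Csf2) and 2 lower (Icam1 and Lcn2), the hypoxia and glycolysis list 1 of 18 higher (Vegfa), and the list of EGFR and MAPK output 1 of 22 higher (Dusp4, at 0.57 and 0.82 and no longer called within Vim tertiles). Beside the 2.93% of all measured genes higher in both, 1 call in a list of this size is not read as a result about the list. Aldh1a3 was higher and Prom1 lower among 13 tumour-initiating markers. Immediate early genes had medians of 0.09 and 0.00, against 0.23 and 0.03 over all genes. Of 26 measured, 5 were higher and 6 lower in the whole tumour, against 20.4% and 6.38% of all measured genes, and Nr4a1 was lower in both libraries.

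**Figure D5:**
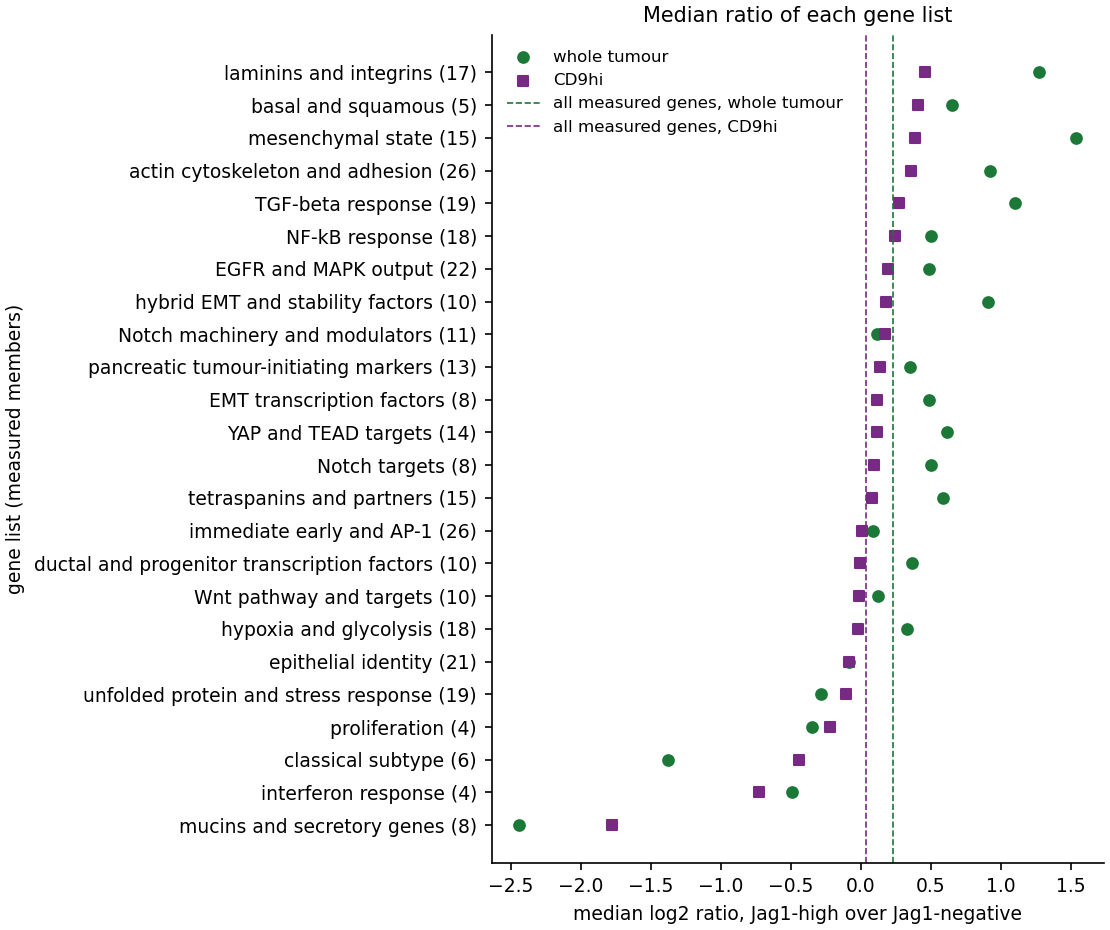
Each row is a gene list with at least 4 measured members, and the points give the median log2 ratio of its members in the whole tumour (circles) and the CD9hi library (squares), with dashed lines at the median of all measured genes, 0.23 and 0.03. Laminins and integrins lie highest in the CD9hi library at 0.46, the mesenchymal list highest in the whole tumour at 1.53, and mucins and secretory genes lowest in both at -2.44 and -1.78.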

How the data were processed

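The deposited values were whole-number UMI counts, which the authors left unnormalized. Build GRCm39 and Cell Ranger 7.0.0 are named in the submitters' processing notes, while the matrices name version 6.1.2, per the file headers. Of 55361 features, 1705 shared a symbol and were kept apart by identifier. The libraries held 48287984 and 120451299 UMIs and shared 2 barcodes, 1 of them eligible in both. Pairs were set without replacement by minimum total difference in log depth (scipy 1.17.1), and counts were summed over cells and scaled to CPM. Intervals of ratios are conditional binomial and those of shares Clopper-Pearson. Named genes were the 15 leading genes in each direction by the smaller library ratio, 10 within Vim tertiles, up to 4 of each list, and all Notch ligands, receptors and targets. A further 25 were added after their values were seen. Members and lists were chosen with earlier results of these data known. The pairing and calling steps were tested on simulated data. Doublets stayed in, and leaving out high Scrublet scores was an alternative. Some genes that the rule names are not reported here.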

Additional observations from a re-analysis of the deposited data

Results flagged for a closer look

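Mcpt8, a serine protease gene known from basophils, moved in opposite directions in the libraries and was the 1 gene to do so past 1.5-fold without Vim tertiles. It was at 222 CPM in Jag1-high and 138 CPM in Jag1-negative cells of the whole tumour, a log2 ratio of 0.69, and at 152 and 354 CPM in the CD9hi library, a ratio of -1.22. Within Vim tertiles it was lower in both, at -0.67 and -1.03. The difference between the libraries was not tested.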

How the results depend on the processing

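Counts in both libraries (150 higher, 86 lower, 155 and 74 within Vim tertiles) stayed within 1.5 times under most alternatives. At a mean CPM minimum of 10, 159 genes were lower, and 127 within tertiles. At a minimum of 50, 79 were higher and 28 lower, and 73 and 23 within tertiles. At 2-fold the counts were 42 and 27, and 41 and 22 within tertiles. Both settings pass fewer genes by construction. With Jag1-high set at 3 or more UMIs, 97 were higher, and 94 within tertiles. Without pairing on depth, 47 were lower within tertiles. The cause of these last shifts was not tested. Centring on the median gene was added after the data were seen.

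Of the ratios of single genes recomputed under these settings, 2369 stayed inside the counting interval of the main ratio and 933 lay outside it, and 10 ratios past 1.5-fold changed sign, while sign changes of smaller ratios were not counted apart. In pairs within Vim and Epcam tertiles, CD9hi Prss2 was 0.20, and in the whole tumour Ctrb1 was 1.36, Mcpt8 -0.30, Twist1 -0.42, Areg -0.062, Hspa1b 0.042 and Dkk2 -0.007. CD9hi Reg2 was 0.44 without cells rich in acinar or islet genes. Mcpt8 in the whole tumour was -0.98 with Jag1-high at 8 or more UMIs, and Dlk1 was 0.56 at 3 or more. No paired analysis was possible because neither library has a replicate; both groups were compared inside each library. Scrublet's automatic call marked 0.549% and 0.0196% of cells and did not work in the CD9hi library, so the 63 and 224 highest scores were left out, which gave 160 higher and 88 lower genes. Low genes such as Dll4 are limited by depth.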
